A study of Homo sapiens with 4 samples.

Results

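The HOX cluster genes were chosen by symbol: every gene whose name in the platform annotation is HOXA, HOXB, HOXC or HOXD followed by a number. This gave 29 genes read by 36 probes, out of 20045 named genes and 47318 probes on the array. HOXB contributed 10 genes, HOXC 9, HOXD 9 and HOXA only HOXA2, since the other HOXA genes were not analysed here. The comparison of the 4 clusters is therefore in effect one of HOXB, HOXC and HOXD. The cells were U87, an established human glioblastoma line. One group received a piR-598 mimic, a made copy of a small RNA of the class that pairs with PIWI proteins, and the other an NC oligo, a negative control sold for microRNA inhibitors, each by lipid transfection to 25 nM, with RNA taken 24 h later. Each group had 2 bead arrays, and the labels used here do not say whether they came from separate cultures, so that the p-values reflect the spread among these samples alone, which may be technical. All 4 arrays come from this single cell line, and no untransfected cells were analysed here.

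HOX genes encode transcription factors that bind DNA through a homeodomain and give the cells of the embryo their position along the head-to-tail axis. They lie in 4 clusters, HOXA on chromosome 7, HOXB on chromosome 17, HOXC on chromosome 12 and HOXD on chromosome 2. Genes of the same number in different clusters form a paralog group, and within a cluster low numbers are used early and towards the head, high numbers late and towards the tail. In the developing brain HOX genes are used in the hindbrain and spinal cord and are silent in the forebrain, and many are found switched on in glioblastoma. HOX proteins bind DNA together with PBX and MEIS partners, and Polycomb and trithorax proteins keep each gene off or on.

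The mean unscaled signal was 273.02 and 284.82 on the piR-598 mimic arrays and 305.8 and 300.0 on the NC oligo arrays, and 19627 to 20324 probes per array had a detection p under 0.05. That p compares a probe with the negative control beads of its array. The lowest signal counted as detected was 96.0 and 98.9 on mimic arrays 1 and 2, and 102 and 103 on NC oligo arrays 1 and 2. Of 7 astroglial and glioma markers, OLIG2, NES, VIM and CD44 were detected on all 4 arrays, while GFAP, S100B and SOX2 were detected on none. Of 3 immune markers, CD68 and AIF1 were detected on all 4 arrays and PTPRC on none. The endothelial marker CDH5, the epithelial marker CDH1 and the neuronal marker RBFOX3 were also detected on none. TUBB3 was detected on all 4 arrays, EPCAM and SYP on 3 and PECAM1 on 1. With 2 arrays a group, every value below has limited precision.

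Part of each of the HOXB, HOXC and HOXD clusters was detected in U87 cells, for most genes at signals close to the detection limit. The genes detected on all 4 arrays were HOXB2, HOXB4, HOXB5 and HOXB6 in HOXB, HOXC4, HOXC6, HOXC8 and HOXC13 in HOXC, and HOXD3, HOXD8 and HOXD11 in HOXD. By the best probe of each gene, those detected on only some arrays were HOXB7 and HOXA2 on 3, HOXB3 and HOXC11 on 2, and HOXD4, HOXD10 and HOXD13 on 1. Counting a gene as detected where at least 1 of its probes had a detection p under 0.05 on all 4 arrays, 11 of 29 HOX genes were detected, or 37.9%, against 51.6% of all named genes. The count was 4 of 10 in HOXB, 4 of 9 in HOXC, 3 of 9 in HOXD and 0 of 1 in HOXA. These some-array genes numbered 7, and 11 genes were detected on none. An array reads RNA pooled from all cells, so fewer cells with a transcript and less of it per cell cannot be told apart. No test was made between clusters, because the genes of a cluster are not replicates.

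**Figure D1:**
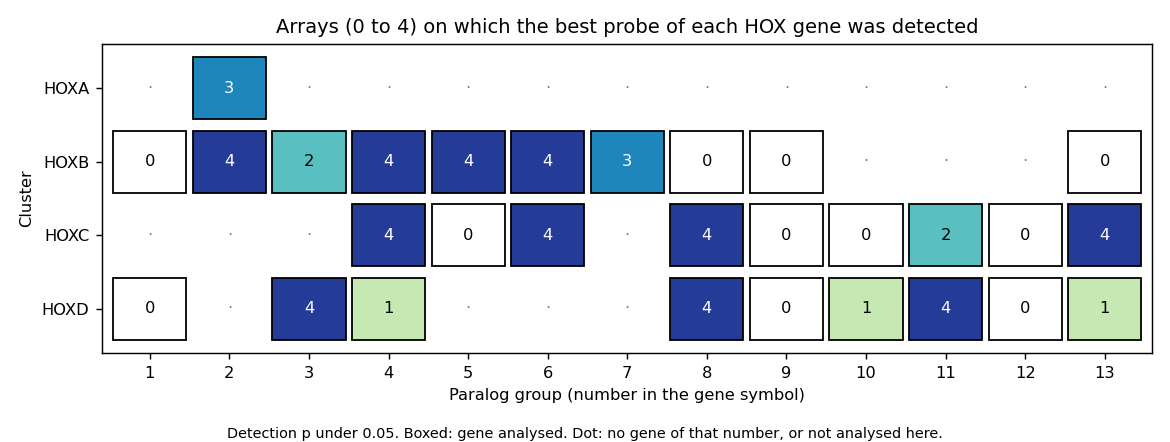
Number of arrays, of 4, on which the best probe of each HOX gene was detected, with the clusters down the page and the paralog group (the number in the gene symbol) across it; boxes are genes analysed, dots are numbers with no gene or not analysed here. Boxes showing 4 are HOXB2, HOXB4 to HOXB6, HOXC4, HOXC6, HOXC8, HOXC13, HOXD3, HOXD8 and HOXD11.

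By position along the clusters, the detected genes lay mostly in the middle. Of the 11 genes of paralog groups 4 to 8, 7 were detected on all 4 arrays, or 63.6%, against 51.6% of all named genes. The share was 2 of 6 in groups 1 to 3, namely HOXB2 and HOXD3, and 2 of 12, or 16.7%, in groups 9 to 13, namely HOXC13 and HOXD11. A gene counted by its best probe, and groups 4 to 8 had 16 probes for 11 genes, against 12 for 12 in groups 9 to 13. Genes with several probes thus had more chances to count. HOXC4 and HOXC6 counted although each also had a probe not detected on all 4 arrays. Group 6 was the only group of more than 1 gene in which every analysed gene was detected on all 4 arrays. Groups 1, 7, 9, 10 and 12 had no gene detected on all 4 arrays.

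On the array as a whole, the share of HOX genes detected was above that of 2 other gene families and below that of all named genes. Of 19 numbered SOX genes, which encode another family of developmental transcription factors, 5 were detected on all 4 arrays, or 26.3%. Of 371 olfactory receptor genes, which serve smell, 7 were, or 1.89%, and 17.0% were detected on at least 1 array. That share was 62.1% for the HOX genes, 42.1% for the SOX genes and 66.3% for all named genes. Detection on only some arrays thus also occurred among olfactory receptors. Counted per array, a gene was detected by any of its probes, which put HOXA2 on every array. The number of HOX genes detected was 13 and 16 on the piR-598 mimic arrays and 16 and 13 on the NC oligo arrays, so the groups overlapped fully. In HOXB it was 5 and 6 on the mimic arrays and 6 and 4 on the NC oligo arrays, in HOXC 4 and 5 against 5 and 4, and in HOXD 3 and 4 against 4 and 4.

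**Figure D2:**
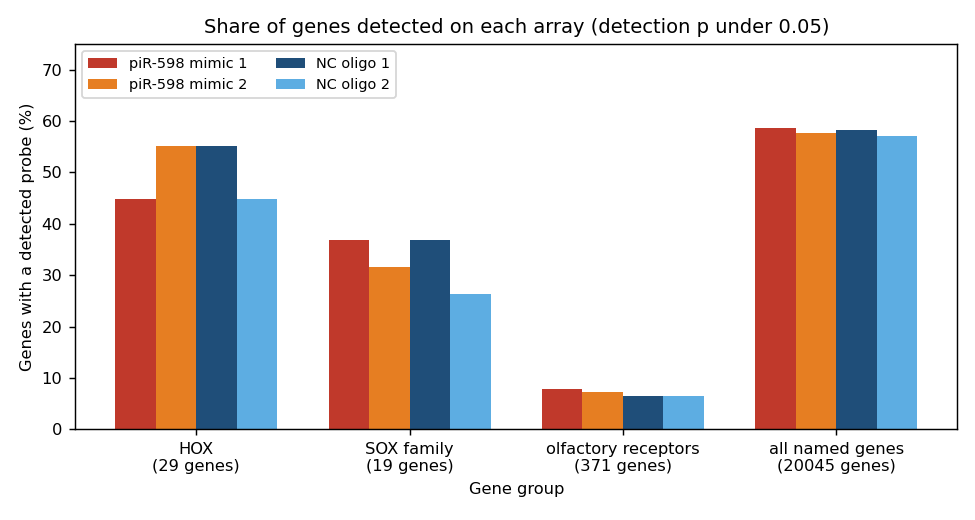
Percentage of genes with at least 1 probe detected (p under 0.05) on each array, for the HOX genes, the SOX family, the olfactory receptors and all named genes, with 1 bar per array. HOX bars run from 44.8% to 55.2%, and the bars of the 2 piR-598 mimic arrays span the same range as those of the 2 NC oligo arrays.

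The values behind these calls are unscaled signals, in arbitrary intensity units, and each is compared only with the same probe on other arrays. In HOXB, HOXB2, which patterns the hindbrain, was well above its arrays' detection limits. Its signal was 344 and 315 on the mimic arrays and 361 and 408 on the NC oligo arrays, between 3.19 and 3.97 times the lowest detected signal of the same array. The mimic values lay below the NC oligo values, as did the means of these arrays.

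HOXB4, known for expanding blood stem cells, had a signal of 112 and 112 on the mimic arrays and 120.0 and 127 on the NC oligo arrays. HOXB5, a gene of trunk neural crest and gut nerve development in mouse, had 107 and 101 on the mimic arrays and 117 and 123 on the NC oligo arrays. Both genes were detected everywhere but stayed within 1.24 times the limit. HOXB6 was read by 2 probes, which were both detected on all 4 arrays. Probe ILMN_1667831 gave 106 and 99.5 on the mimic arrays against 108 and 112 on the NC oligo arrays, and probe ILMN_1768101 gave 108 and 115 against 107 and 115. The first of these read lowest on mimic array 2, whereas the second read as high there as on NC oligo array 2.

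HOXB3 and HOXB7 were at the detection limit. HOXB7, often reported as overexpressed in tumours, had 101 and 101 on the mimic arrays and 111 and 101 on the NC oligo arrays, and missed detection on NC oligo array 2 only, with a detection p of 0.0961. For HOXB3, probe ILMN_1689874 had 95.1 and 100.2 on the mimic arrays and 111 and 102 on the NC oligo arrays. It was detected on 1 array of each group, and the other HOXB3 probe on none. HOXB1, a gene of the fourth hindbrain segment, and HOXB8, HOXB9 and the prostate gene HOXB13, at the high-number end, were detected on no array, with detection p from 0.0935 to 0.908.

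In HOXC, HOXC6, which marks forelimb-level motor neurons, was well above the limit, but only by 1 of its 4 probes. Probe ILMN_1794492 gave 375 and 385 on the mimic arrays and 461 and 424 on the NC oligo arrays, from 3.89 to 4.51 times the lowest detected signal. Probe ILMN_1740104, assigned to the same transcript accession, gave 97.0 and 112 on the mimic arrays and 104 and 116 on the NC oligo arrays. It was detected on all 4 arrays, and array 2 was the higher of the pair in each group. The other 2 probes, assigned to a second transcript, were detected on 1 array (mimic array 1, at a detection p of 0.0494) and on none.

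HOXC8, a gene of forelimb-level motor neurons in mouse, had 134 and 132 on the mimic arrays and 152 and 152 on the NC oligo arrays. HOXC13, which controls hair keratin genes, had 113 and 104 on the mimic arrays and 128 and 122 on the NC oligo arrays. For both, the unscaled mimic values lay below those of the NC oligo arrays. HOXC11 gave 87.2 and 99.0 on the mimic arrays and 102 and 92.7 on the NC oligo arrays, and was detected on 1 array of each group. HOXC5, HOXC9, HOXC10 and HOXC12 were detected on none. HOXC10, a gene of lumbar-level motor neurons, came nearest, with a detection p of 0.0506 on mimic array 1.

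HOXC4 and HOXC5 have 1 annotated start in common but differed in detection. RefSeq gives HOXC4, HOXC5 and HOXC6 the same lowest coordinate, and the promoter windows of HOXC4 and HOXC5 (250 bases before to 50 after the start) are the same stretch, so it is printed once, with each CG pair in capitals (RefSeq, GRCh38.p14, chr12:54016638-54016937, plus strand).
HOXC4 and HOXC5: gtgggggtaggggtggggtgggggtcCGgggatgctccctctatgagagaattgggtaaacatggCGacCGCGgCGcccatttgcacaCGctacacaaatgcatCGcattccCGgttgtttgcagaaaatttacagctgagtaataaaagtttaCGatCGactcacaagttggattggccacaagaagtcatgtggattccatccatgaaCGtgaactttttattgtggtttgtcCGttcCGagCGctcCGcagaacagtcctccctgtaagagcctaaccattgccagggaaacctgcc
Probe ILMN_1719975 of HOXC4 gave 113 and 118 on the mimic arrays and 124 and 115 on the NC oligo arrays, and was detected on all 4 arrays. The other HOXC4 probe, ILMN_1757184, gave 92.1 and 97.0 on the mimic arrays against 96.1 and 97.8 on the NC oligo arrays, and was detected on none. The single HOXC5 probe gave 92.4 and 97.3 on the mimic arrays against 98.6 and 99.8 on the NC oligo arrays, and was also detected on none. Transcripts of these overlapping genes can share exons, so a probe placed in a shared part could not tell them apart.

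In HOXD, detected genes had undetected neighbours. HOXD8 had 123 and 127 on the mimic arrays and 129.8 and 125 on the NC oligo arrays. HOXD11, which with its HOXA paralog shapes the forearm in mouse, had 118 and 116 on the mimic arrays and 121 and 118 on the NC oligo arrays. HOXD3, linked to cell adhesion, had 111 and 108 on the mimic arrays and 115 and 121 on the NC oligo arrays. All 3 were detected on every array, and for HOXD8 and HOXD11 the unscaled signals of the groups overlapped.

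The remaining HOXD genes were at or below the limit. HOXD12, next to HOXD11, had 84.2 and 90.2 on the mimic arrays and 92.8 and 95.3 on the NC oligo arrays, with detection p from 0.397 to 0.909. HOXD4 was detected on NC oligo array 1 only, HOXD10 on NC oligo array 2 only and HOXD13, a gene of digit development, on mimic array 2 only at a detection p of 0.0182. HOXD1 and HOXD9 were detected on no array. The promoter windows of 2 detected genes and of the undetected neighbour of the second are printed because they lie in the same cluster and differ in detection (RefSeq, GRCh38.p14, plus strand: HOXD8 chr2:176129455-176129754, HOXD11 chr2:176107030-176107329, HOXD12 chr2:176099545-176099844), again with CG pairs in capitals.
HOXD8: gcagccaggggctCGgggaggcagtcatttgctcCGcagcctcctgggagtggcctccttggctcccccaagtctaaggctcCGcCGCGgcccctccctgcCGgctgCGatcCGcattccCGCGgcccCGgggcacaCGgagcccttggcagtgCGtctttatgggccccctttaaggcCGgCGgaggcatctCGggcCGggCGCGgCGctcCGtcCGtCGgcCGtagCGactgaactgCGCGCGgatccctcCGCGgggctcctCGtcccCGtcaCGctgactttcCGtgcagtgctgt
HOXD11: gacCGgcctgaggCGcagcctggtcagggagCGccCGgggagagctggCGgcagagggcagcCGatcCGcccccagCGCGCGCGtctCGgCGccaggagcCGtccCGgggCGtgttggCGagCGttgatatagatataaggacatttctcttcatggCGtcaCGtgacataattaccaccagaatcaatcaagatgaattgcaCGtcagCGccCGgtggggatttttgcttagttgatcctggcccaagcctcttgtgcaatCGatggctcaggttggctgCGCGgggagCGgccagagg
HOXD12: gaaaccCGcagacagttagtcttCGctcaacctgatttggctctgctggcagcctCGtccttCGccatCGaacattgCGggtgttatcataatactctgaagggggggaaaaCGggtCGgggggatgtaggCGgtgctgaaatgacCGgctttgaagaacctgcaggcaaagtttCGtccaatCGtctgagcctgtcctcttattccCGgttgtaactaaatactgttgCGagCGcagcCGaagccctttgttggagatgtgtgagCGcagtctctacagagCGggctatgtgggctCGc
These windows held 34, 27 and 19 CG pairs in the order printed, and the HOXC4 and HOXC5 window held 15. Promoter windows were matched for 12 of the 29 HOX genes. The 4 genes detected on all 4 arrays had 15 to 34 CG pairs with a median of 26, and the 8 others 4 to 36 with a median of 17, so the ranges overlapped. The window of HOXD1, detected on no array, held the most, 36. The median over all 35116 promoter windows was 14. The letters TATAAA, searched on both strands, stood in 1 of the 12 HOX windows (HOXD13) and in 11.5% of all windows.

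HOXA2, which patterns the hindbrain and the second pharyngeal arch, was the only HOXA gene analysed, and both its probes were at the limit. Probe ILMN_1799836 gave 98.7 and 96.3 on the mimic arrays and 105 and 106 on the NC oligo arrays, and missed detection on mimic array 2 with a detection p of 0.114. Probe ILMN_2107068 gave 92.8 and 99.0 on the mimic arrays and 92.3 and 104 on the NC oligo arrays, and was detected on array 2 of each group. The probes thus did not pass the detection threshold on the same set of arrays. With both at the limit, which arrays held the transcript cannot be told.

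**Figure D3:**
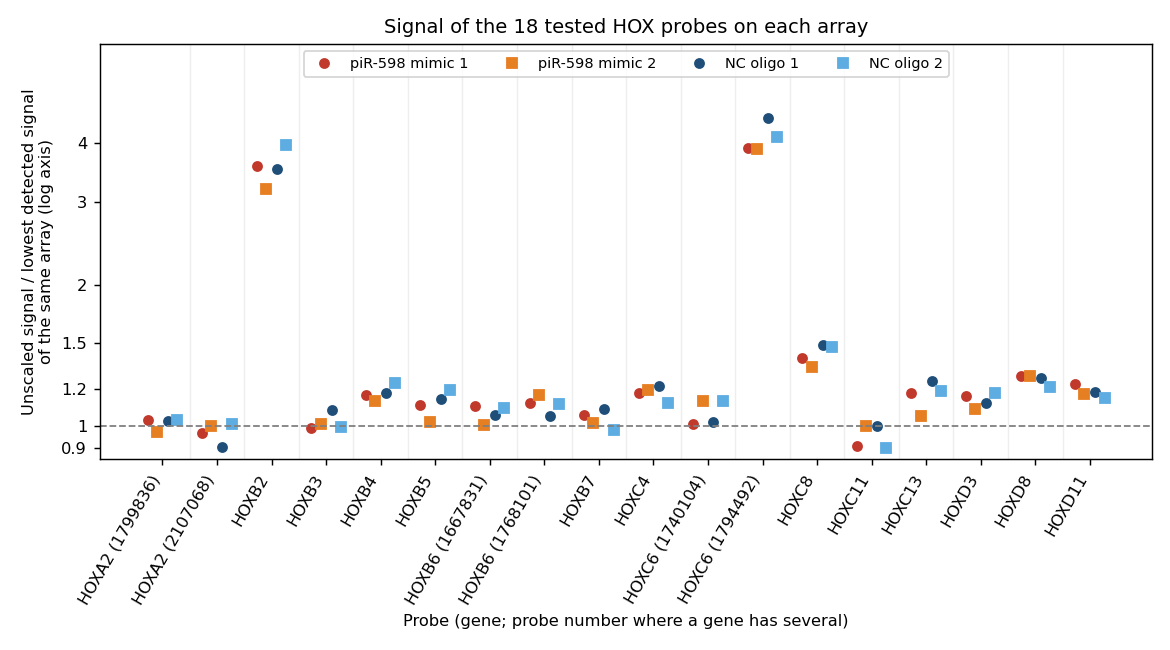
Unscaled signal of each of the 18 HOX probes detected on at least 2 arrays, divided by the lowest detected signal of the same array (log axis, dashed line at 1); circles are replicate 1 and squares replicate 2, red and orange the piR-598 mimic, dark and light blue the NC oligo. HOXB2 and 1 HOXC6 probe sit between 3.19 and 4.51, and all other points lie below 1.5.

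The comparison of the groups asks which HOX transcripts differed a day after the piR-598 mimic was delivered. None passed the test, and no cluster had a member that did. Among the values furthest from 0 were HOXB5 and HOXC13, lower with the mimic, and 1 probe of HOXB6, higher with it. Of the 36 HOX probes, 18 (15 genes) were detected on at least 2 arrays and tested, 50% against 42.7% of all probes. All probes include 17198 without a gene symbol, whereas every HOX probe had one, so these shares are not alike. Counted by gene, 15 of 29 HOX genes were tested, against 11704 of 20045 named genes, a lower share. With limma, 0 of the 18 were called after Benjamini-Hochberg adjustment over 20188 probes (adjusted p under 0.05), of which 0% were called. At an unadjusted p under 0.05 limma also gave 0 of 18, against 5.46% of all tested probes. The log2 fold change, piR-598 mimic minus NC oligo on normalized signals, had a median of -0.06 over the HOX probes (7 positive, 11 negative), against 0.00067 over all tested probes, of which 49.8% were negative.

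Of the HOX probes with lower normalized signals with the mimic, HOXB5 had the smallest unadjusted p. Its normalized log2 signal was 4.92 ± 0.31 on the mimic arrays and 5.32 ± 0.14 on the NC oligo arrays (SD, n = 2), and its log2 fold change was -0.40 ± 0.18 (SE), with a 95% interval from -0.81 to 0.011 (limma adjusted p = 0.895). The arrays of the groups did not overlap, but the mimic arrays differed from each other by 0.44, more than the group means did, and the log2 fold change was -0.64 without mimic replicate 1 and -0.18 without mimic replicate 2. Without background correction it was -0.11. HOXC13 had a log2 fold change of -0.34 ± 0.20 (SE), and its mimic arrays were 0.57 apart. It was -0.65 without mimic replicate 1, -0.06 without mimic replicate 2 and -0.10 without background correction. HOXC8 had -0.19 ± 0.15 (SE) with groups that did not overlap, HOXB3 -0.18 ± 0.17 (SE) and HOXB4 -0.16 ± 0.16 (SE) (limma adjusted p from 0.913 to 0.961 for these 4).

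Of the probes with higher normalized signals with the mimic, HOXB6 probe ILMN_1768101 came first by unadjusted p. It had 5.26 ± 0.10 on the mimic arrays and 4.98 ± 0.23 on the NC oligo arrays (SD, n = 2), and a log2 fold change of 0.28 ± 0.16 (SE), with a 95% interval from -0.09 to 0.65 (limma adjusted p = 0.913). The second HOXB6 probe had -0.08 ± 0.19 (SE), opposite in sign, so the gene's 2 probes gave no common direction. The first was 0.07 without background correction. HOXD8 had 0.17 ± 0.14 (SE), HOXD11 0.17 ± 0.15 (SE), HOXC4 0.11 ± 0.16 (SE) and HOXA2 probe ILMN_2107068 0.06 ± 0.18 (SE) (limma adjusted p from 0.950 to 0.991). HOXD8 was the only one of the 18 probes whose group means differed by more than the larger gap between duplicates, 0.17 against 0.13.

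The 2 probes well above their detection limits had values close to 0. HOXC6 probe ILMN_1794492 had a log2 fold change of -0.06 with a 95% interval from -0.39 to 0.27, and HOXB2 had -0.08 with an interval from -0.46 to 0.31 (limma adjusted p = 0.988 for both). The other 5 tested probes ran from -0.14 (HOXA2 probe ILMN_1799836) to 0.03 (HOXB7). For 15 of the 18 HOX probes, or 83.3%, the interval lay within a 1.5-fold change either way, against 74.6% of all tested probes. The exceptions were HOXB5, HOXC13 and HOXB6 probe ILMN_1768101. For all 18 it lay within 2-fold, as for 99.4% of all tested probes. For probes near the detection limit, the floor of the normalized signal left little room for a fall. HOXB3 probe ILMN_1689874 had a mean log2 signal of 4.77 on the NC oligo arrays, and HOXB9, detected on no array, had 4.22 there. For such probes these counts therefore do not exclude a loss of the transcript. By cluster, the median log2 fold change was -0.04 in HOXA (2 probes), -0.08 in HOXB (7), -0.05 in HOXC (6) and 0.17 in HOXD (3), and no cluster was tested against another.

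Arrays of the same group differed as much as arrays of different groups. The SD of the log2 difference over the 18 HOX probes was 0.30 between the mimic arrays and 0.29 between the NC oligo arrays, and 0.21 to 0.32 for the pairs across groups. The normalized signals of the groups did not overlap for 4 of 18 probes. They were higher with the mimic for 2 probes, HOXD8 and ILMN_1768101 of HOXB6, or 11.1%, against 17.1% of all tested probes, and lower for 2, HOXB5 and HOXC8, or 11.1%, against 17.6%. On the unscaled signals, 10 of 18 HOX probes were lower on both mimic arrays than on either NC oligo array, or 55.6%, and so were 52.9% of all tested probes.

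**Figure D4:**
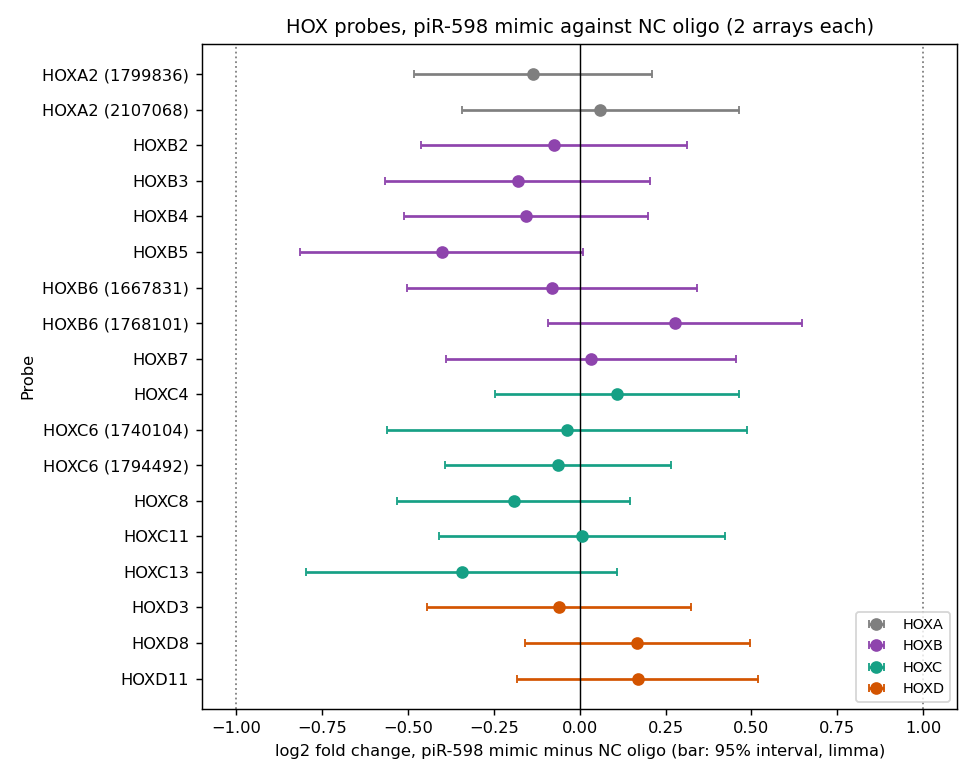
log2 fold change of each tested HOX probe, piR-598 mimic minus NC oligo, with its 95% interval from limma, coloured by cluster; dotted lines mark a 2-fold change. Every interval includes 0 and stays within the dotted lines.

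Genes that act with or on the HOX clusters were taken from 9 lists of companions: DNA-binding partners, upstream activators, trithorax-type and Polycomb proteins, noncoding transcripts of the clusters, and flanking genes. Of 84 listed genes, 66 had a named probe and 47 were tested with 61 probes. With limma 0 of the 61 probes were called higher and 0 lower, against 0% of all tested probes. At an unadjusted p under 0.05 there were 5, or 8.20%, against 5.46% of all tested probes. The median log2 fold change was 0.0047, with 31 positive and 30 negative.

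Nearly all partners of HOX proteins were detected. Of 8 PBX, MEIS and PKNOX genes with a named probe, 7 were detected on all 4 arrays and PKNOX2 on none. MEIS2, a homeodomain partner of HOX proteins, had a signal of 438 and 519 on the mimic arrays and 611 and 632 on the NC oligo arrays, with a log2 fold change of -0.26 ± 0.15 (SE). PBX2 had -0.26 ± 0.17 (SE). PKNOX1 had 0.45 ± 0.15 (SE), whereas its other tested probe had 0.01. All 3 missed the threshold (limma adjusted p of 0.895 or more).

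Among upstream activators, the caudal genes CDX1, CDX2 and CDX4, which switch on trunk HOX genes in the embryo, were detected on no array. The retinoic acid receptors RARA and RARB and their partners RXRA and RXRB were detected on all 4 arrays by at least 1 probe. RARA had a log2 fold change of 0.16 and RXRB 0.07, at -0.08 with median scaling. RARB probe ILMN_1699723 gave 97.2 and 102 on the mimic arrays, both detected, against 100.4 and 96.3 on the NC oligo arrays, neither detected. Its unscaled signals thus overlapped, and it was tested only through the mimic arrays. The other tested RARB probes had log2 fold changes of -0.12 and -0.11. All missed the threshold (limma adjusted p of 0.8996 or more).

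Both classes of HOX chromatin regulators were detected. All 10 trithorax-type genes and 12 of 13 Polycomb genes with a named probe were detected on all 4 arrays. KMT2A, the histone methyltransferase known for maintaining HOX expression, had a signal of 131 and 148 on the mimic arrays and 127 and 135 on the NC oligo arrays, with a log2 fold change of 0.41 ± 0.16 (SE). The demethylase KDM6A had -0.32 ± 0.15 (SE) and the methyltransferase DOT1L 0.29 ± 0.17 (SE). BMI1, a Polycomb subunit, had a signal of 674 and 784 on the mimic arrays and 1183 and 1060.0 on the NC oligo arrays, and a log2 fold change of -0.51 ± 0.15 (SE). SUZ12, of the other main Polycomb complex, had -0.35 ± 0.19 (SE). EZH2, its catalytic partner, had 0.27 ± 0.16 (SE) by 1 probe and -0.11 and -0.0019 by its other probes. No regulator named here was called (limma adjusted p of 0.895 or more).

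The noncoding transcripts of the clusters that had a named probe were mostly not detected. Of 22 listed, only 8 had one, 5 of them microRNA genes, and 0 were detected on all 4 arrays. The others, such as HOTAIRM1 and HAGLR, were not assessed. HOTTIP, at the high-number edge of HOXA, was detected on 3, with 101 and 95.6 on the mimic arrays and 107 and 115 on the NC oligo arrays, and a log2 fold change of -0.32 ± 0.19 (SE) (limma adjusted p = 0.913). HOTAIR, transcribed within HOXC, was detected on 1 array and HOXA11-AS on none. The 5 probes of the microRNA genes of the clusters, MIR10A, MIR10B, MIR196A1, MIR196A2 and MIR196B, were detected on no array (detection p from 0.0857 to 0.981). Which form of each microRNA these probes read was not tested. The mature forms matched in RefSeq (GRCh38.p14) are printed with the seed, bases 2 to 8, in capitals (hsa-miR-196a-5p chr12:53991762-53991783 plus strand, with a second copy at chr17:48632532-48632553 minus strand, hsa-miR-196b-5p chr7:27169528-27169549 minus strand, hsa-miR-10a-5p chr17:48579904-48579926 minus strand), since they show that the clusters carry copies of the same microRNAs as they do of the same genes.
hsa-miR-196a-5p: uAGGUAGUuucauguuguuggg
hsa-miR-196b-5p: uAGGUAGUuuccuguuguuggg
hsa-miR-10a-5p: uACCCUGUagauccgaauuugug
The miR-196 forms, made from genes in HOXB, HOXC and HOXA, share the seed AGGUAGU, and miR-10a, from HOXB, has ACCCUGU. As background, miR-196 is known to target HOXB8 messenger RNA, which was itself detected on no array.

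The flanking genes were mixed. EVX1, next to HOXA, and EVX2, next to HOXD, were detected on no array, as were SKAP1 and TTLL6 near HOXB. PRAC1 near HOXB and SNX10 near HOXA were detected on 1 array each. SKAP2 and HIBADH near HOXA, CALCOCO2 near HOXB, all 4 listed HOXC neighbours, and MTX2, LNPK and HNRNPA3 near HOXD were detected on all 4 arrays. ATP5MC2, a subunit of the mitochondrial ATP synthase near HOXC, had a log2 fold change of 0.43 ± 0.16 (SE), and 0.34 by its other tested probe. CBX5, a heterochromatin protein of the same region, had 0.24 ± 0.14 (SE) and CALCOCO1 -0.10 ± 0.22 (SE), at 0.21 without mimic replicate 2. LNPK had 0.52 ± 0.24 (SE), from 0.22 to 0.81 when 1 array was left out, with 0.07 by its other probe, and HNRNPA3 had 0.45 ± 0.17 (SE). MTX2 had -0.17 and -0.14 by its 2 tested probes. SKAP2 had 0.15 and -0.16 by 2 probes, HIBADH -0.07 and CALCOCO2 0.06, at -0.02 with median scaling. No flanking gene was called (limma adjusted p of 0.895 or more).

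**Figure D5:**
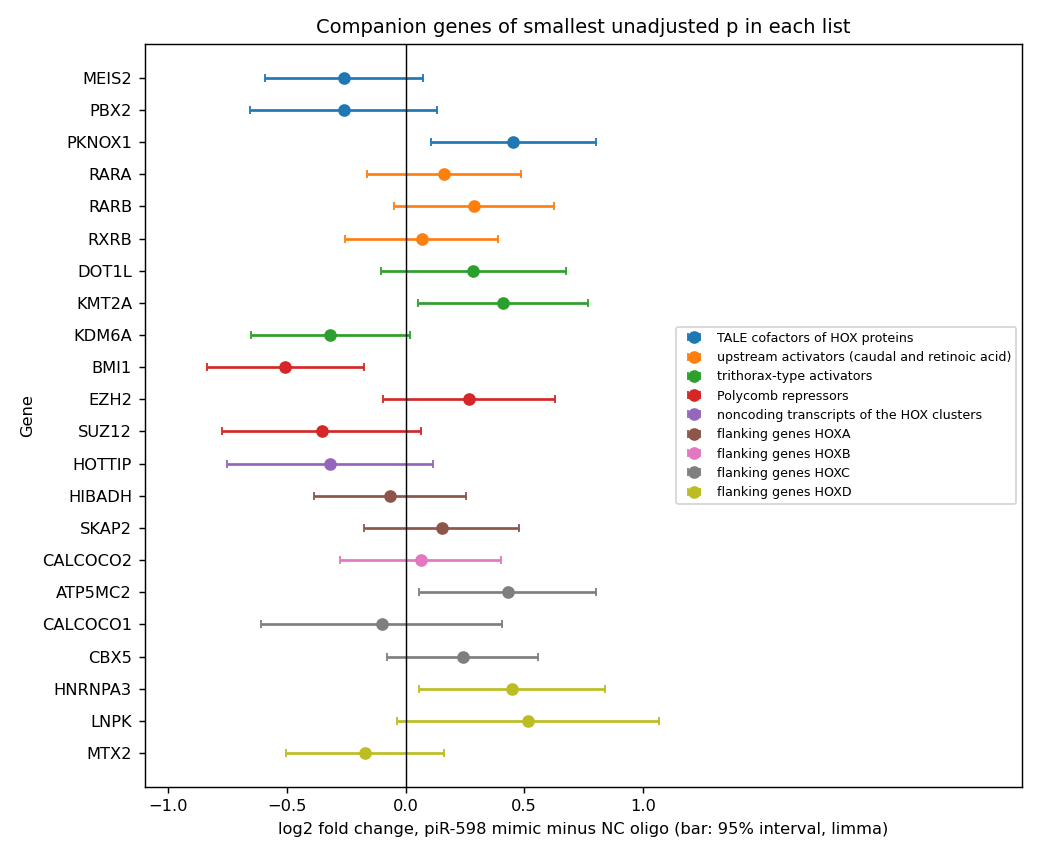
log2 fold change, piR-598 mimic minus NC oligo, with its 95% interval from limma, for up to 3 genes of smallest unadjusted p in each companion list, coloured by list. The points run from -0.51 for BMI1 to 0.52 for LNPK, and none passed the test after adjustment over all probes; the RARB probe was detected on no NC oligo array.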

How the data were processed

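The authors deposited unscaled average signal intensities with a detection p-value beside each, and a second table of intensities whose 4 array means are all 290.9, which served as an alternative. The submitters' processing notes name GenomeStudio 2011.1, and per the labels' protocols biotin-labelled cRNA was made from total RNA. The array's genome build is not given in the sources used here. Unscaled signals were corrected by normexp (offset 16), quantile normalized and taken to log2 (neqc steps in limma 3.58.1, R 4.3.3). Fitted were the 20188 probes detected (p under 0.05) on 2 or more arrays, with lmFit and eBayes, two-sided, without a replicate block, with Benjamini-Hochberg adjustment over all of them. Of these steps, only the fit and the adjustment were tested on simulated data, which were drawn as normalized signals. The background correction, the normalization and the detection filter were not.

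Genes were named from the platform annotation (30112 probes with 1 symbol, 8 with several, 17198 with none), and all 36 HOX probes matched RefSeq by symbol. Probe sequences were not used here, so cross-hybridisation between similar paralogs was not tested. Named were all HOX genes by detection, the 5 smallest unadjusted p in each direction and up to 3 tested genes of each companion list. Members and lists were chosen with earlier results of these data known. Alternatives were other background, offset, scaling, filter and variance settings, the replicate block, and leaving out each array.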

Additional observations from a re-analysis of the deposited data

How the results depend on the processing

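The count of 0 called HOX probes and of 0 called companion probes held under all the other settings run, including every left-out array; at an unadjusted p under 0.05 limma gave 0 to 2 HOX probes. Over all probes, limma called 0 to 3 when 1 array was left out: 1 without piR-598 mimic replicate 2 and 3 without NC oligo replicate 2, none of them a HOX probe. With the replicate block the count of HOX probes called was 0 (smallest adjusted p = 0.701), and over all probes it was 0. The differences between duplicates correlated at 0.147 between the groups over the tested probes, and the labels give the replicate numbers no shared source, so they were not used to pair samples.

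Of 154 log2 fold changes of HOX probes under the other settings, 5 changed sign, all within 0.04 of 0: on the authors' scaled signals HOXA2 ILMN_1799836 at 0.0048, HOXB6 ILMN_1667831 at 0.018, HOXC6 ILMN_1740104 at 0.037 and HOXD3 at 0.012, and without background correction HOXC11 at -3.0e-04. Sizes depended on the background handling: without background correction, with offset 50 and on the authors' scaled signals HOXB5 was -0.11, -0.20 and -0.09, HOXC13 -0.10, -0.18 and -0.08, and HOXB6 ILMN_1768101 0.07, 0.14 and 0.13, so the intervals in the text hold for the corrected signals only. Leaving out 1 array changed the sign for 9 of the 18 probes, with ranges from -0.15 to 0.27 for HOXA2 ILMN_2107068, -0.23 to 0.082 for HOXB2, -0.37 to 0.0095 for HOXB3, -0.33 to 0.16 for HOXB6 ILMN_1667831, -0.20 to 0.27 for HOXB7, -0.040 to 0.26 for HOXC4, -0.32 to 0.25 for HOXC6 ILMN_1740104, -0.18 to 0.19 for HOXC11 and -0.22 to 0.095 for HOXD3. Of the 22 companion probes named with a test, whose alternatives were added after seeing the data, RXRB at -0.079 and CALCOCO2 at -0.024 changed sign with median scaling, and leaving out 1 array gave -0.034 to 0.16 for CALCOCO2 and -0.42 to 0.21 for CALCOCO1, also at 0.084 without NC oligo replicate 1. Companions that kept their sign could still move over 1.5 times, as LNPK did, from 0.22 without mimic replicate 2 to 0.81 without NC oligo replicate 2. Without background correction PKNOX1 went from 0.45 to 0.12 and KMT2A from 0.41 to 0.16, while BMI1 went from -0.51 to -0.46. The causes were not tested.

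HOX genes counted as detected on all 4 arrays were 11. On at least 2 arrays HOXA had 1, HOXB 6 of 10, HOXC 5 of 9 and HOXD 3 of 9. On at least 1 array HOXA had 1, HOXD 6 and all HOX genes 18, while HOXB stayed at 6 and HOXC at 5. Requiring every probe of a gene on all 4 arrays left 2 in HOXC and did not change HOXB or HOXD. The order of the clusters by share detected therefore depended on the rule. Leaving out 1 array gave 0 to 1 for HOXA, where HOXA2 counted without piR-598 mimic replicate 2. HOXB gained HOXB7 without NC oligo replicate 2.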
